A study of Mus musculus with 25 samples.

Results

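The self-filling ileal loop of mice labelled IL10 knockout was compared with the self-filling ileal loop of wild type mice. All 3 arrays of IL10 knockout self-filling loops and all 3 arrays of wild type self-filling loops entered, 6 of the 25 Illumina bead arrays in the series, each chosen by its sample title. Of the 25697 probes on the array, 15318 were detected (detection p under 0.05) on at least 3 of the 25 arrays, and they gave 11227 genes at 1 probe a gene. All mice were female C57Bl/6 aged 6 to 8 weeks, fed a gel diet for 5 days before surgery. A 2.5 cm length of ileum 3 cm from the cecum was built into a loop, and RNA of whole loop tissue was taken 5 weeks later. Content collects and stands in a self-filling loop, whereas a self-emptying loop, made by the same operation, drains. Self-emptying loops of mice labelled IL10 knockout (n = 3) and of wild type mice (n = 4) were set beside the main comparison. The labels name no agent and no further allele, give neither the Il10 allele nor the origin of the line, and leave unsaid whether each replicate was a different animal. The spread behind the p-values was estimated over all 25 arrays of the series, including groups not compared here, and may be technical.

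Interleukin 10 is a cytokine that restrains inflammation in the gut. It binds a receptor made of Il10ra and Il10rb chains and acts through STAT3 in macrophages and other immune cells. Without it, macrophages make more TNF, IL-1 and IL-12 in response to bacteria, T cells make more interferon gamma, and mice that lack it can develop spontaneous enterocolitis that depends on the gut flora. Standing content in a loop of ileum is a long-used model of bacterial overgrowth. The main comparison asks how loops labelled IL10 knockout and wild type loops differ where content stands. The self-emptying loops allow the same difference to be read where content drains.

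Values are normalized log2 intensities, and differences are log2 differences ± SE, loops labelled IL10 knockout minus wild type. A gene passed the test at an adjusted p under 0.05 over all 11227 genes (limma, Benjamini-Hochberg), and "rose" and "fell" are used of such genes only. Ifng, Ifngr2, Ccl25, Cxcl13, Csf3r, Cck and Mapkapk2 are named outside the rule for named genes and were chosen after their values were seen. Each array of the series detected 12123 to 13627 probes, the median probe was read by 33 to 39 beads, and precision is limited by how few arrays there are. Correlations over the genes tested ran from 0.975 to 0.987 within the loops labelled IL10 knockout, from 0.981 to 0.987 within the wild type loops and from 0.947 to 0.970 between the groups. The signal at percentile 95 over the median signal was 15.3, 11.6 and 14 on the arrays labelled IL10 knockout, against 15.3, 16.3 and 15.5 on the wild type arrays, and with it as a covariate 1413 genes passed, of which 1161 were among those of the fit without it. By runs of 8 array codes, which need not be slides, run 1 held 1 array labelled IL10 knockout and 2 wild type arrays, run 3 held 1 of each, and run 2 held only an array labelled IL10 knockout.

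The targeted gene went against the label. The Il10 probe read 7.45, 7.24 and 7.34 in the loops labelled IL10 knockout, with detection on all 3 arrays, and 4.61, 4.54 and 4.52 in wild type loops, with detection on none. All arrays labelled IL10 knockout lay above all wild type arrays, and Il10 was at least 5.48-fold higher (adjusted p = 9.68e-07). The probe was also detected on every self-emptying array labelled IL10 knockout, and on no array of the series without that label. It so entered the test only through the arrays where it was high. The position of the probe in Il10 is not known here, and a probe outside a deleted part checks nothing about a deletion. The loops are therefore called loops labelled IL10 knockout, and each direction below rests on that label.

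Of the 11227 genes, 1413 passed the test (12.6%). Of these, 668 rose (5.95%) and 745 fell (6.64%), and 559 differed by at least 1 log2 unit (4.98%), 351 of them higher (3.13%) and 208 lower (1.85%). The list counts below are to be read beside these shares of all genes. The median difference of all genes was -0.02. When arrays were scaled to a common median instead of quantile-normalized, that median moved to -0.13, and 482 genes rose and 918 fell. Within run 1 all 1413 genes kept their direction, and within run 3 it was 1408. For the 1342 called genes whose groups did not overlap that direction was fixed, so it is no sign of stability. Groups did not overlap in 12.5% of all genes with the loops labelled IL10 knockout above, and in 15.6% with them below. The 15 largest rises and 15 largest falls were named only among genes without overlap, so its absence in them adds no support. Without wild type replicate 1 the count was 778, without replicate 1 of the loops labelled IL10 knockout it was 860, and without wild type replicate 3 it was 892. With the 6 arrays fitted alone, 741 genes passed.

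Of the receptor chains and mediators of IL10, most did not pass the test. Il10ra, the ligand-binding chain, lay at 5.22 ± 0.24 in loops labelled IL10 knockout and at 4.34 ± 0.06 in wild type loops (SD, n = 3 each), where it was detected on no array. It was at least 1.26-fold higher (adjusted p = 0.0483), and it passed in none of the 6 fits that left out 1 array (adjusted p from 0.0589 to 0.131). Il10rb, the shared second chain, fell by 0.80 ± 0.19 (adjusted p = 0.00926, and 0.0779 without wild type replicate 1). Socs1, an inhibitor of JAK kinases that interferon induces, rose by 1.39 ± 0.25. In all, 3 of 19 tested genes of the Il10 receptor and STAT3 list rose and 1 fell, against 5.95% and 6.64% of all genes. The 3 were Il10 itself, which entered the test only through the arrays where it was high, Il10ra and Socs1. With any 1 of the 6 arrays left out 2 rose.

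Of the 1413 genes, S100a8, Lcn2 and S100a9 rose most. S100a8, a chain of calprotectin, a metal-binding protein that neutrophils carry, read 13.29, 13.65 and 11.70 in loops labelled IL10 knockout, against 6.47, 7.89 and 5.91 in wild type loops. The groups did not overlap, replicate 3 was the lowest in each, and the difference of 6.12 ± 0.87 was a 69.8-fold rise (adjusted p = 7.88e-05). S100a9, the other chain, rose by 5.41 ± 0.73. Lcn2, which encodes lipocalin 2, a protein of neutrophils and inflamed epithelium that binds bacterial siderophores, read 12.99, 12.96 and 10.87 in loops labelled IL10 knockout and 6.49, 7.32 and 5.38 in wild type loops. Again no array overlapped, and Lcn2 rose by 5.87 ± 0.55 (adjusted p = 5.53e-07).

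Of the neutrophil list, 9 of 13 tested members rose and none fell, with a median difference of 2.0. The list holds 22 genes, of which 21 were on the array, so members detected on too few arrays are absent from this count. A member could enter the test through the loops where it was high, so the count favours members that rose. Fpr2, a receptor for bacterial formyl peptides that draws phagocytes, read 10.26, 9.49 and 8.47 in loops labelled IL10 knockout, against 4.54, 5.29 and 4.39 in wild type loops, where 1 of 3 arrays detected it. It rose by 4.67 ± 0.45 (adjusted p = 7.45e-07) with no overlap. Retnlg, a resistin-like protein of neutrophils, read 9.84, 7.14 and 7.08 in loops labelled IL10 knockout and 5.41, 5.13 and 4.96 in wild type loops, so replicate 1 stood above the other arrays of its group. It rose by 2.85 ± 0.60. Clec4d, a lectin receptor of myeloid cells, was at least 6.06-fold higher and was detected on no wild type array. Csf3r, the receptor for the growth factor of neutrophils, differed by 0.31 ± 0.20 and did not pass (adjusted p = 0.352). In whole tissue, a change in the number of cells of a type and a change in RNA per cell cannot be told apart, here and for the cell markers below.

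Acute phase and antimicrobial genes rose in part. Saa3, a serum amyloid A made locally in inflamed tissue, rose by 3.95 ± 0.61. Hp, haptoglobin, read 10.34, 9.29 and 8.79 in loops labelled IL10 knockout and 4.98, 6.28 and 4.67 in wild type loops, a rise of 4.16 ± 0.74 without overlap. Lrg1, an acute phase glycoprotein, rose by 3.35 ± 0.44. Ang4, an antimicrobial ribonuclease of Paneth and goblet cells, fell by 2.39 ± 0.64, a call lost without replicate 2 of the loops labelled IL10 knockout (adjusted p = 0.0878) and without wild type replicate 3 (adjusted p = 0.0893). In the list of antimicrobial and alarm genes, 6 of 21 tested members rose and 4 fell.

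The chitinase-like genes rose too. Chil3, a secreted product of activated myeloid cells, read 10.63, 10.05 and 8.78 in loops labelled IL10 knockout and 4.51, 5.50 and 4.48 in wild type loops, with detection on 1 wild type array. It rose by 4.99 ± 0.56 (adjusted p = 5.06e-06), and its other probe gave 3.81. Chil1, made by macrophages, neutrophils and epithelium in inflamed colon, rose by 4.33 ± 0.34 (adjusted p = 5.49e-08).

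**Figure D1:**
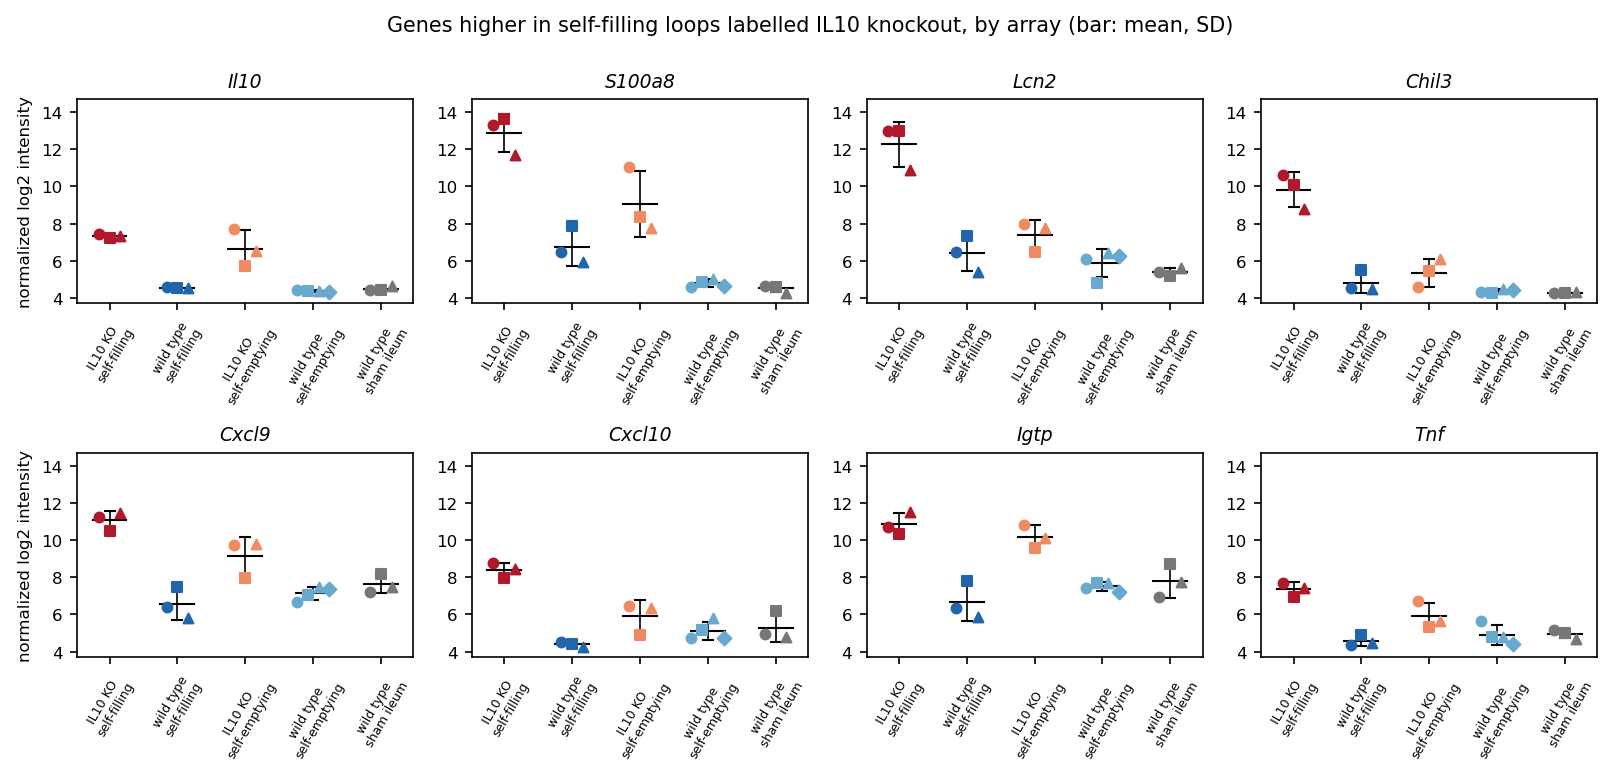
Normalized log2 intensity of 8 genes (y axis) on each array of 5 groups (x axis). Points are arrays, with circle, square, triangle and diamond for replicates 1 to 4, and bars give the mean and SD. In each of the 8 panels the 3 self-filling loops labelled IL10 knockout lie above the 3 wild type self-filling loops.

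Most tested targets of interferon gamma rose. Interferon gamma is secreted by T and NK cells and induces chemokines, guanylate-binding proteins, immunity-related GTPases and antigen presentation. Of its list, 17 of 21 tested members rose and 1 fell, with a median difference of 1.86. Ifng itself read 7.19, 6.31 and 6.79 in loops labelled IL10 knockout and 4.37, 4.28 and 4.28 in wild type loops, where no array detected it, and was at least 3.68-fold higher (adjusted p = 5.49e-08). It was detected on 4 of the 25 arrays, all labelled IL10 knockout, and so entered the test through the loops where it was high. Ifngr2, a chain of its receptor, fell by 0.65 ± 0.18 (adjusted p = 0.0224), a call lost without replicate 3 of the loops labelled IL10 knockout (adjusted p = 0.09) and without wild type replicates 1 and 3 in turn (adjusted p = 0.072 and 0.0571).

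Chemokines that interferon gamma induces rose with them. Cxcl9, which draws T cells through CXCR3, read 11.25, 10.47 and 11.47 in loops labelled IL10 knockout and 6.38, 7.49 and 5.78 in wild type loops. With no overlap, it rose by 4.51 ± 0.46 (adjusted p = 1.31e-06). Cxcl10, another ligand of CXCR3, read 8.76, 7.97 and 8.44 in loops labelled IL10 knockout and 4.49, 4.42 and 4.27 in wild type loops. No wild type self-filling array detected Cxcl10, and it was at least 11.3-fold higher (adjusted p = 5.31e-07).

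Effector genes of the same list rose as well. Igtp, an immunity-related GTPase that acts on vacuoles holding pathogens, read 10.73, 10.35 and 11.51 in loops labelled IL10 knockout and 6.33, 7.82 and 5.85 in wild type loops, a rise of 4.20 ± 0.45 without overlap. Gbp2, a guanylate-binding protein, rose by 4.00 ± 0.47, and its other probe gave 3.38. Ubd, a ubiquitin-like modifier induced by TNF and interferon gamma, read 10.17, 8.89 and 12.13 in loops labelled IL10 knockout and 6.70, 5.74 and 5.32 in wild type loops. It rose by 4.48 ± 0.73, and its 3 arrays labelled IL10 knockout spread over more than 3 log2 units. Outside the list, Cd274, which encodes the inhibitory ligand PD-L1, rose by 3.59 ± 0.33.

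Genes of antigen presentation rose in both classes against wild type self-filling loops. As a mean over the class II list, loops labelled IL10 knockout lay at 8.88 to 9.13 and wild type loops at 7.65 to 8.24. Ileum of sham-operated wild type mice lay at 8.86. For class I these means were 9.29 to 9.50, 7.98 to 8.42 and 8.80. For MHC class I, 13 of 16 tested members rose and none fell, with a median of 1.07, and 8 rose with median scaling. Tap1, a subunit of the peptide pump that loads class I, read 8.23, 7.69 and 8.58 in loops labelled IL10 knockout and 5.16, 6.35 and 4.98 in wild type loops, a rise of 2.67 ± 0.33 without overlap. The immunoproteasome subunits Psmb8 and Psmb9 rose by 1.99 ± 0.33 and 1.5 ± 0.23. H2-T10, a class I gene with close copies that its probe may also read, was detected on no wild type array and was at least 4.46-fold higher. For MHC class II, 8 of 14 rose and none fell, with a median of 1.40, and 5 rose without wild type replicate 3. H2-Eb1, a class II beta chain, read 11.41, 11.61 and 11.96 in loops labelled IL10 knockout and 9.78, 10.25 and 9.10 in wild type loops. Its arrays did not overlap, and it rose by 1.95 ± 0.35. Ciita, the class II transactivator, rose by 1.55 ± 0.34 and Lgmn, a lysosomal protease, by 1.59 ± 0.23.

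Of the 23 tested members of the type I interferon list 6 rose and none fell, with a median of 0.24, and 3 rose without replicate 1 of the loops labelled IL10 knockout or without wild type replicate 1. Ifit2, which binds viral RNA, rose by 2.96 ± 0.42, and Usp18, which removes ISG15 and damps the receptor, rose by 2.90 ± 0.47. The mean over the list was 6.53 to 7.01 in loops labelled IL10 knockout and 5.96 to 6.20 in wild type loops. In ileum of sham-operated wild type mice it was 7.02.

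The starts of the genes named from the interferon gamma and MHC lists were searched in RefSeq promoters of build GRCm38.p6, from 250 bases before to 50 after the start. Of 15 genes, 12 had a promoter there. The gamma-activated site, TTCNNNGAA, was found in 2, and the core of the interferon-stimulated response element, GAAA, any 2 bases and GAAA again, to which IRF factors bind, in 3, on either strand. Either motif was in 4 of the 12, and over all annotated genes with a promoter 9.55% held the first, 3.99% the second and 12.9% either. The 4 windows are shown because their genes rose and they hold the letters of these motifs, in capitals. A match of letters is no site of binding.
Cxcl10, chr5:92349078-92349117, minus strand: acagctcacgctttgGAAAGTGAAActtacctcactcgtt
Gbp2, chr3:142620589-142620628, plus strand: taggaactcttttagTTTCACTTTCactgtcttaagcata
Igtp, chr11:58199496-58199546, plus strand: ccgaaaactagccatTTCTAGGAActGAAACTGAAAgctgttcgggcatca
Psmb8, chr17:34198083-34198121, plus strand: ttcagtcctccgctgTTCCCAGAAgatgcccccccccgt
Each window lies wholly upstream of the annotated start. Igtp held both motifs, Cxcl10 and Gbp2 the response element, which in Gbp2 runs on the other strand, and Psmb8 the gamma-activated site.

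Cytokines and chemokines of myeloid cells rose beside them. Tnf read 7.69, 6.94 and 7.45 in loops labelled IL10 knockout and 4.35, 4.89 and 4.46 in wild type loops, with detection on 1 wild type array. It rose by 2.79 ± 0.33 (adjusted p = 8.47e-06) with no overlap. Il1b, made by activated macrophages and neutrophils, read 10.61, 9.39 and 8.71 in loops labelled IL10 knockout and 6.69, 6.13 and 5.76 in wild type loops. It rose by 3.37 ± 0.76, with replicate 1 the highest in each group. Il1r2, a decoy receptor for IL-1, was at least 4.04-fold higher and was detected on no wild type array. Of the cytokine list, 6 of 19 tested members rose and none fell.

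Of 26 tested chemokines and receptors, 9 rose and 1 fell. Ccl4 and Ccl5, which draw T cells and monocytes, rose by 3.39 ± 0.42 and 3.03 ± 0.58, and the other probe of Ccl4 gave 1.76. Ccl17, a product of dendritic cells, was at least 3.17-fold higher. Cxcl13, which draws B cells, differed by 3.14 ± 1.03 and did not pass, at an adjusted p just above 0.05. Ccl25, which draws T cells to the small intestine, was the member that fell, by 0.64 ± 0.20 (adjusted p = 0.0408). That call was lost in 5 of the 6 fits without 1 array (adjusted p from 0.0772 to 0.129), all but the fit without replicate 3 of the loops labelled IL10 knockout.

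Some genes of bacterial sensing rose. Tlr2, the receptor for bacterial lipoproteins, read 8.84, 8.37 and 8.38 in loops labelled IL10 knockout and 6.52, 6.54 and 6.06 in wild type loops. The groups lay far apart for their spread, and Tlr2 rose by 2.16 ± 0.19 (adjusted p = 2.71e-07). Cd14, the coreceptor for lipopolysaccharide, rose by 1.40 ± 0.24. Tlr4, the receptor for lipopolysaccharide, read 6.22, 5.96 and 5.68 in loops labelled IL10 knockout and 5.50, 5.15 and 5.56 in wild type loops, and its difference of 0.55 ± 0.20 did not pass (adjusted p = 0.0824). Nfkbia, the feedback inhibitor of NF-kB, read 10.91, 10.28 and 10.69 in loops labelled IL10 knockout and 8.75, 8.55 and 8.37 in wild type loops, a rise of 2.07 ± 0.27. Of the list, 12 of 28 tested members rose and none fell, and 5 rose when the 6 arrays were fitted alone.

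Markers of macrophages and dendritic cells rose in 17 of 22 tested members, with none lower and a median of 1.73. C1qb, a chain of complement C1q that tissue macrophages make, read 10.06, 9.99 and 9.68 in loops labelled IL10 knockout and 7.25, 7.92 and 6.25 in wild type loops. It rose by 2.77 ± 0.49 (adjusted p = 0.000664) without overlap. The Fc receptor Fcgr4 and the shared chain Fcer1g rose by 2.94 ± 0.43 and 2.68 ± 0.40, and Lyz2, lysozyme of myeloid cells, by 2.92 ± 0.67, though its other probe gave 0.03.

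Markers of T and cytotoxic cells rose in 16 of 20 tested members, with none lower and a median of 1.54. Cd3d, a chain of the T cell receptor complex, read 7.98, 7.97 and 8.31 in loops labelled IL10 knockout and 5.73, 5.50 and 5.16 in wild type loops. No array overlapped, and it rose by 2.62 ± 0.43 (adjusted p = 0.000316). Cd3e and Cd3g, its partners, rose by 1.93 ± 0.35 and 2.36 ± 0.47, and Nkg7, a granule protein of cytotoxic cells, by 2.58 ± 0.34.

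None of 15 tested B and plasma cell markers passed (limma), with 0 at an unadjusted p under 0.05 and a median of 0.00. Mzb1, a chaperone of antibody-secreting cells, differed by 0.96 ± 0.63. Of 16 endothelial markers 7 rose, led by the adhesion molecule Icam1 at 2.13 ± 0.32, and the count was between 2 and 7 when 1 of the 6 arrays was left out, lowest without wild type replicate 3. Of 8 markers of mast cells and eosinophils 3 rose and 1 fell, and 0 to 2 rose with 1 array left out. None of 13 smooth muscle markers, 10 of enteric neurons and glia, 12 of adipocytes or 21 of the cell cycle passed (limma), and 0, 1, 0 and 0 of them had an unadjusted p under 0.05, against 26.1% of all genes. Of the smooth muscle list 2 rose without replicate 1 of the loops labelled IL10 knockout. The summed level of the smooth muscle list, as a mean over its members, was 7.91, 9.80 and 9.32 in loops labelled IL10 knockout and 8.28, 9.49 and 8.18 in wild type loops. It overlapped between the groups and ranged over more than 1 log2 unit within each, and its part in the other results was not tested.

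**Figure D2:**
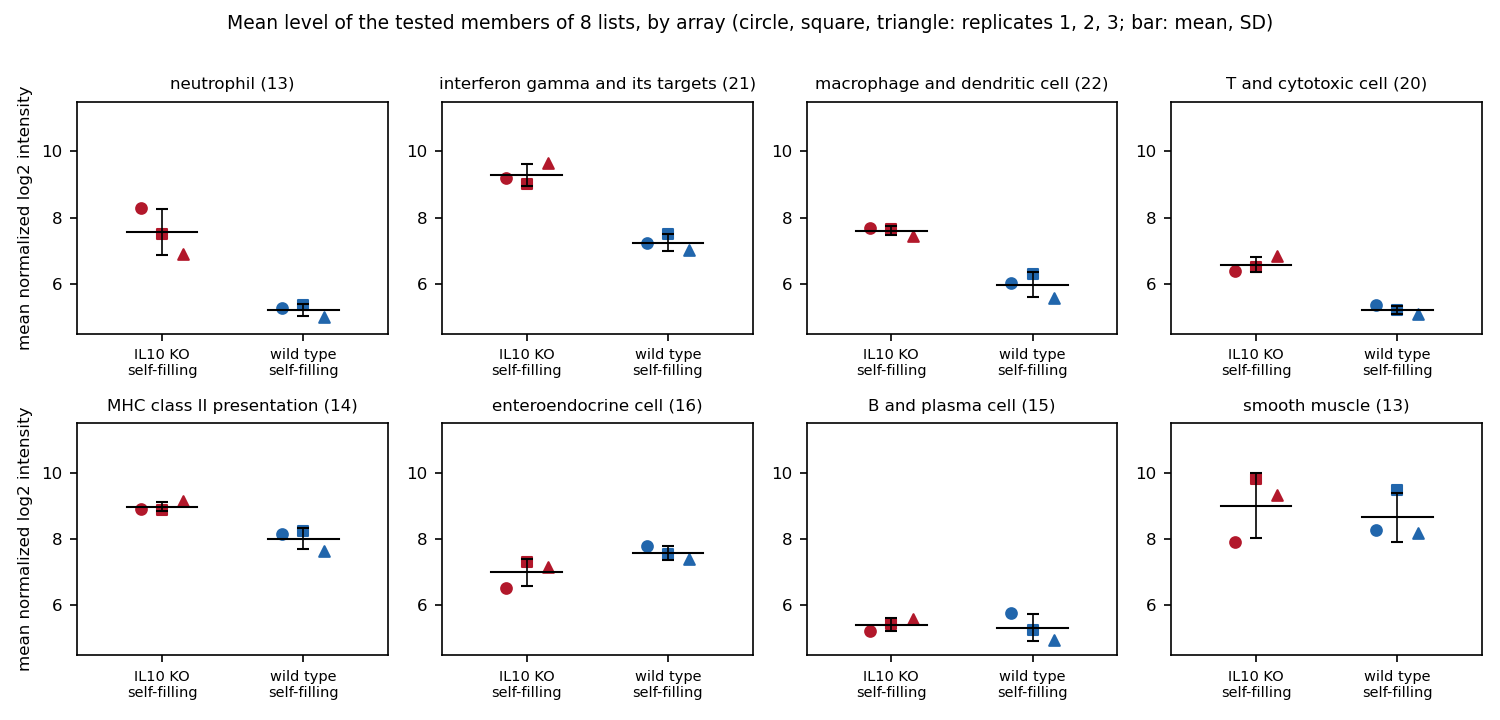
Mean normalized log2 intensity over the tested members of 8 lists (y axis) for each array of the self-filling loops labelled IL10 knockout (left in each panel) and wild type (right), with bars for the mean and SD. The 2 groups lie apart in the upper 4 panels, in MHC class II and, with loops labelled IL10 knockout lower, in the enteroendocrine list. They overlap in the B and plasma cell and smooth muscle lists.

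**Figure D3:**
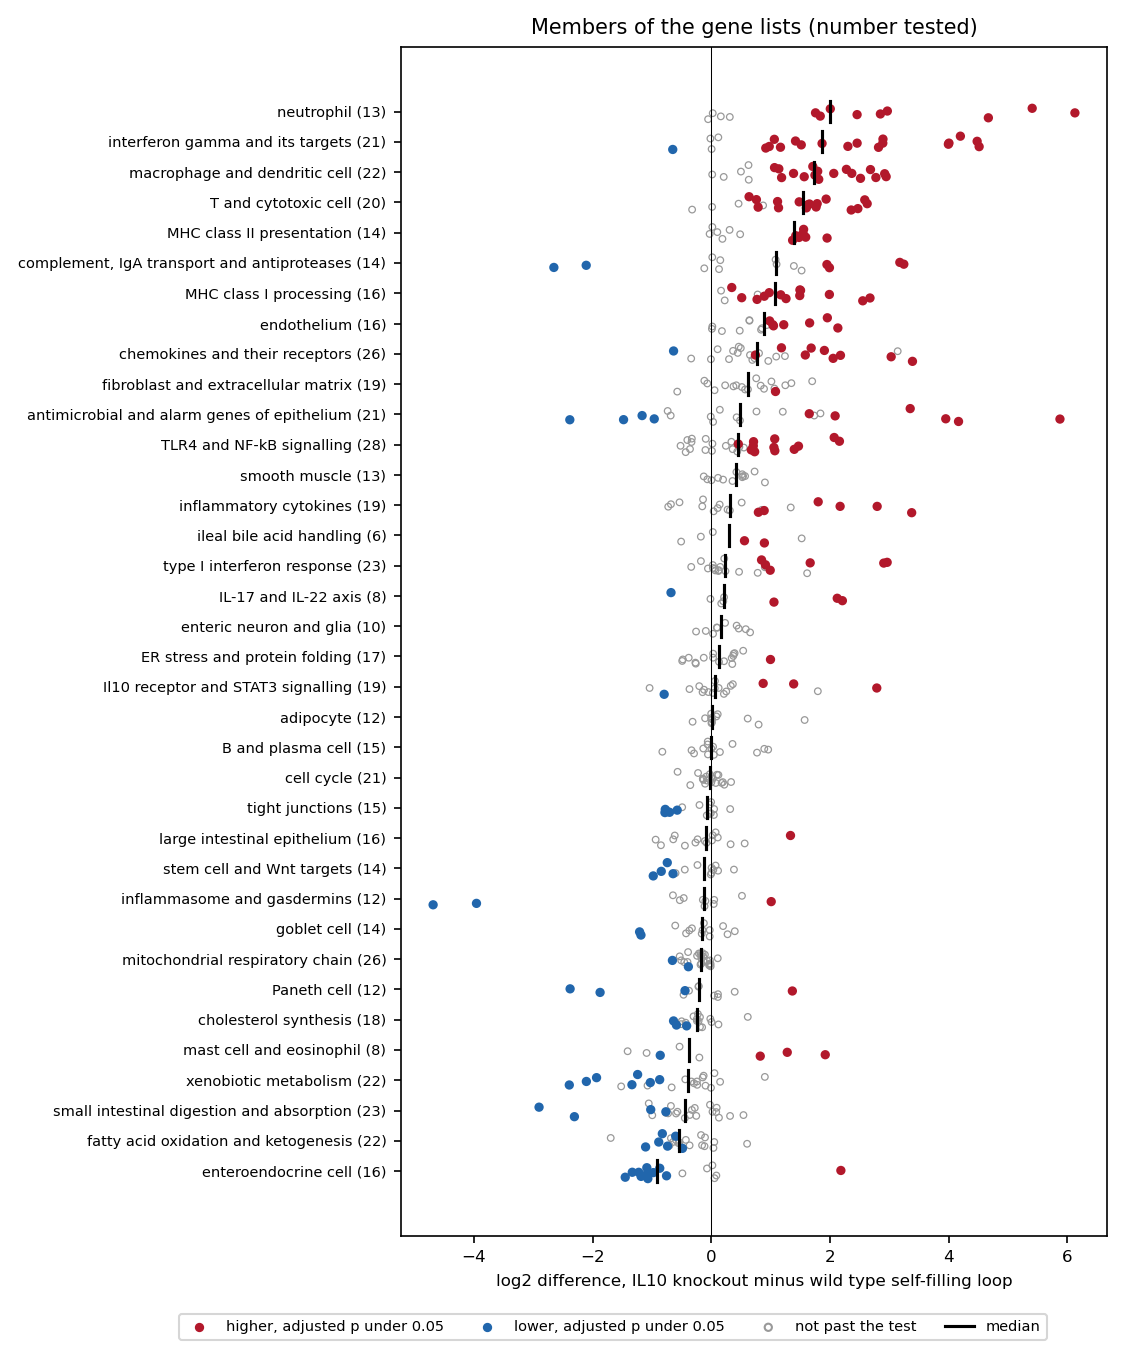
Log2 difference in self-filling loops, labelled IL10 knockout minus wild type (x axis), of each tested member of the lists with at least 5 tested members (rows, with the number tested). Filled points passed the test, open points did not, and black ticks are medians, which run from 2.0 for the neutrophil list to -0.92 for the enteroendocrine list.

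Of the 1413 genes, LOC100045250 and Gsdmc2 fell most. Gsdmc2, a gasdermin of gut epithelium, read 6.12, 4.54 and 5.80 in loops labelled IL10 knockout, where 2 of 3 arrays detected it, and 8.28, 10.76 and 11.49 in wild type loops. The groups did not overlap, and the wild type arrays spread widely, with replicate 1 lowest. Gsdmc2 fell by 4.69 ± 0.99 (adjusted p = 0.00334), and its other probe gave -5.03. Gsdmc3, a close copy whose probe may read both, was at least 11.6-fold lower and detected on no array labelled IL10 knockout, but 5 of the 6 fits that left out 1 array lost the call (adjusted p up to 0.111 without wild type replicate 3). The probe annotated as LOC100045250 fell by 5.20 ± 1.11 and read 5.61, 4.49 and 5.65 in loops labelled IL10 knockout and 8.56, 10.95 and 11.84 in wild type loops, with the same order of the wild type arrays as Gsdmc2.

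Arg2, the mitochondrial arginase, read 5.49, 5.19 and 4.88 in loops labelled IL10 knockout and 9.19, 9.48 and 8.20 in wild type loops. It fell by 3.77 ± 0.35 (adjusted p = 5.31e-07) with no overlap. Tm4sf4, a tetraspan membrane protein, had the smallest adjusted p of the named genes. It read 8.09, 7.74 and 7.49 in loops labelled IL10 knockout and 11.81, 10.86 and 10.84 in wild type loops, and fell by 3.39 ± 0.22 (adjusted p = 9.73e-09), while its other, dimmer probe gave 0.47. The secretoglobin Scgb2b27 fell by 3.95 ± 0.63, with -1.26 for its other probe, and Scgb2b7 fell by 3.72 ± 0.80. These are near copies of each other, and their probes may share signal.

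Of the xenobiotic list 7 of 22 tested members fell and none rose, with a median of -0.39. Its member Cyp2d26, a cytochrome P450, fell by 2.39 ± 0.50 and was detected on 1 array labelled IL10 knockout. Outside the list, Ugt2b36, which glucuronidates steroids and drugs, and Fmo5, a flavin monooxygenase, fell by 3.25 ± 0.39 and 2.94 ± 0.38. Serpina1b, an antiprotease of the complement, IgA transport and antiproteases list, read 4.47, 5.06 and 5.25 in loops labelled IL10 knockout and 8.53, 7.04 and 7.18 in wild type loops, and fell by 2.65 ± 0.41 without overlap. Of that list 4 of 14 tested members rose and 2 fell, with a median of 1.09, and 1 rose without wild type replicate 3.

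Of digestion and absorption 4 of 23 fell and none rose, and only 1 fell without either of replicates 1 and 2 of the loops labelled IL10 knockout or without wild type replicate 2. Treh, the trehalase of the brush border, read 5.75, 5.96 and 8.24 in loops labelled IL10 knockout and 10.02, 9.56 and 9.09 in wild type loops. It fell by 2.90 ± 0.68 (adjusted p = 0.00749, and 0.0501 without replicate 1 of the loops labelled IL10 knockout), and its replicate 3 stood above the other 2 arrays of that label. Outside the list, Asah2, a neutral ceramidase of the brush border, fell by 2.57 ± 0.39.

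Fatty acid oxidation fell in 6 of 22 tested members, with none higher and a median of -0.55, and in 3 without replicate 1 of the loops labelled IL10 knockout. Acads, the short-chain acyl-CoA dehydrogenase, read 8.11, 8.07 and 8.04 in loops labelled IL10 knockout and 9.27, 9.30 and 8.99 in wild type loops, and fell by 1.11 ± 0.15 without overlap. Acadvl and Eci1, enzymes of the same pathway, fell by 0.74 ± 0.15 and 0.83 ± 0.14. Of cholesterol synthesis 3 of 18 fell and of the respiratory chain 2 of 26, against 6.64% of all genes. The respiratory chain lay near that share. Neither list had a call without replicate 1 of the loops labelled IL10 knockout or without wild type replicate 3.

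Most tested enteroendocrine markers fell. Enteroendocrine cells are scattered hormone cells of the gut epithelium. Of 16 tested markers 10 fell and 1 rose, with a median of -0.92, and 4 fell without replicate 1 of the loops labelled IL10 knockout or without wild type replicate 1, while 5 fell with the 6 arrays fitted alone. Chga, which encodes chromogranin A of their granules, read 5.57, 5.93 and 5.60 in loops labelled IL10 knockout and 7.39, 6.93 and 6.46 in wild type loops. It fell by 1.22 ± 0.27 (adjusted p = 0.00475) without overlap. Tph1, which makes serotonin, and Cck, the hormone cholecystokinin, fell by 1.33 ± 0.30 and 1.08 ± 0.22. The call for Cck by itself was not followed through the fits with 1 array left out. Outside the list, Ddc, the decarboxylase that completes serotonin and is also made by absorptive cells, fell by 2.91 ± 0.37. Tac1, the precursor of substance P, made by enteroendocrine cells and enteric neurons, was the member that rose. It read 9.37, 11.58 and 11.66 in loops labelled IL10 knockout and 9.02, 8.36 and 8.68 in wild type loops, a rise of 2.18 ± 0.40.

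Counts of further epithelial lists stand beside the 6.64% of all genes that fell. Of 14 stem cell and Wnt genes 4 fell and none rose, led by Olfm4, a secreted marker of crypt base cells, at -0.98 ± 0.18, and 1 fell without replicate 1 of the loops labelled IL10 knockout or without wild type replicate 1. Of 15 tight junction genes 4 fell, of which F11r, the adhesion molecule JAM-A, fell by 0.70 ± 0.15, and 1 or 2 fell without replicate 1 of the loops labelled IL10 knockout or without any 1 of the wild type arrays. Of 12 Paneth cell genes 3 fell and 1 rose. Without replicate 2 of the loops labelled IL10 knockout 1 of them fell. Pla2g2a, an antibacterial phospholipase, read 11.88, 11.75 and 11.41 in loops labelled IL10 knockout and 10.09, 10.40 and 10.46 in wild type loops, a rise of 1.36 ± 0.24 without overlap. Of 14 goblet cell genes 2 fell and none rose, and none fell without replicate 1 of the loops labelled IL10 knockout. Pnliprp2, a lipase of the pancreas and Paneth cells, and Clps, the colipase of pancreatic juice, fell by 2.38 ± 0.50 and 2.23 ± 0.43.

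**Figure D4:**
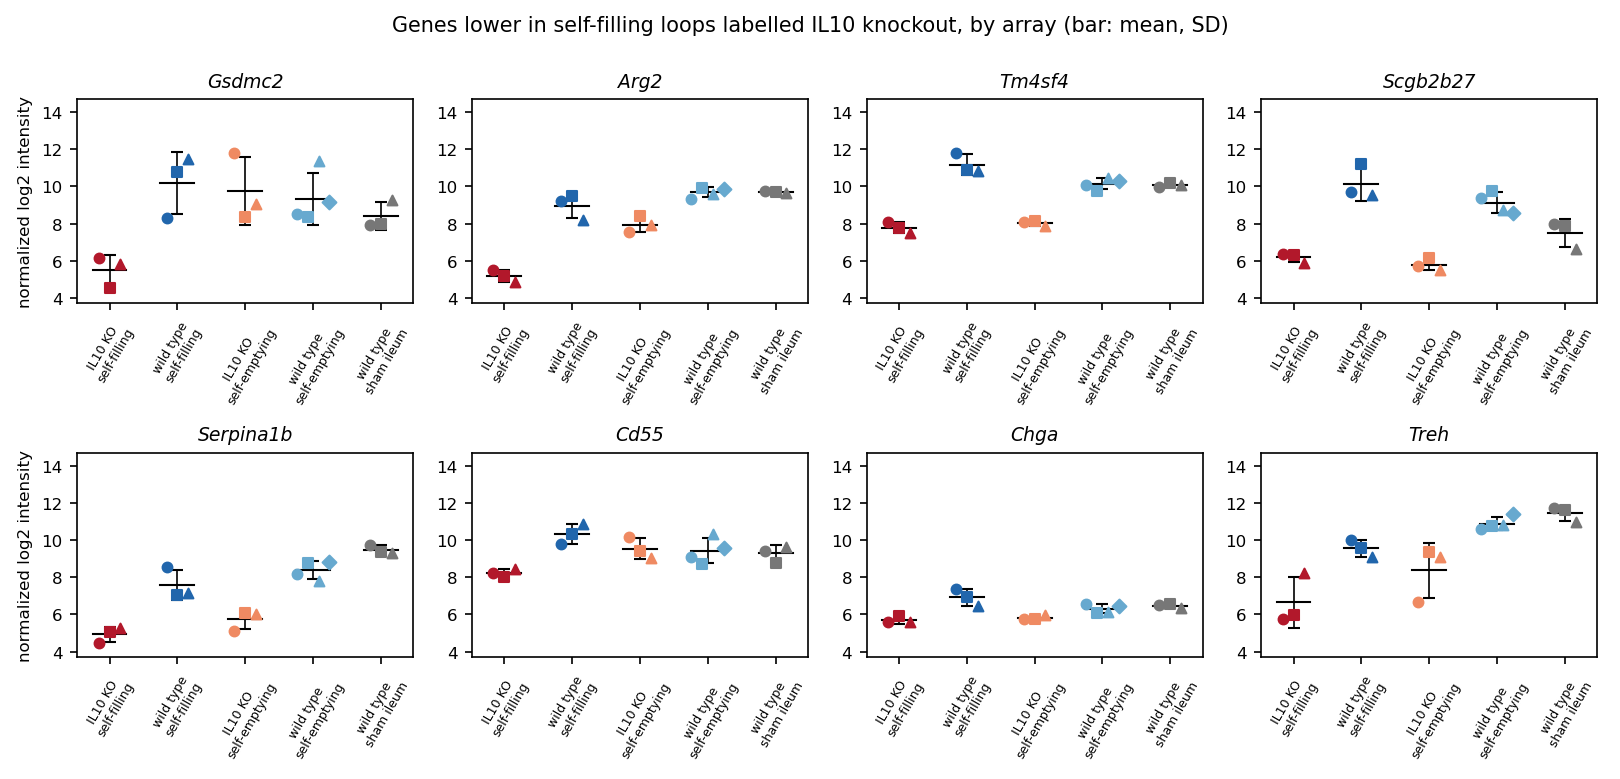
Normalized log2 intensity of 8 genes (y axis) on each array of 5 groups (x axis), drawn as in the plot of rises. In each panel the 3 self-filling loops labelled IL10 knockout lie below the 3 wild type self-filling loops, while for Gsdmc2 and Cd55 the self-emptying loops of both labels overlap.

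The genes that neighbour Il10 in the annotation were read as a group. Of the 20 annotated genes on each side, 40 in all, 14 were tested, of which 2 rose and 1 fell. Of all genes 5.95% rose and 6.64% fell, and so few neighbours cannot be told apart from those shares. Ctse, an aspartic protease of antigen-presenting cells and stomach epithelium, read 7.57, 7.64 and 7.34 in loops labelled IL10 knockout and 4.54, 5.22 and 4.38 in wild type loops, with detection on 1 wild type array. It rose by 2.81 ± 0.20 (adjusted p = 1.72e-08), and by 1.43 in self-emptying loops (adjusted p = 0.000105). Rassf5, an effector of Ras in lymphocytes, rose by 1.35 ± 0.35 (adjusted p = 0.0134, and 0.0693 without wild type replicate 3). In self-emptying loops Rassf5 differed by 0.40 and did not pass (adjusted p = 0.485). Cd55, which shields cells from complement, read 8.21, 8.01 and 8.44 in loops labelled IL10 knockout and 9.82, 10.33 and 10.85 in wild type loops, and fell by 2.11 ± 0.35. In self-emptying loops Cd55 differed by 0.10 and did not pass (adjusted p = 0.893). Mapkapk2, a kinase gene next to Il10, did not pass in self-filling loops at 0.47 ± 0.19 (adjusted p = 0.111), and rose by 0.59 in self-emptying loops (adjusted p = 0.0425).

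The same labels were compared in self-emptying loops, which share no array with the comparison above. There 1072 genes passed (9.55%), 588 higher (5.24%) and 484 lower (4.31%), and 459, 542 and 557 passed without IL10 knockout replicate 1, wild type replicate 2 and IL10 knockout replicate 3 of those loops in turn. Of the 668 genes that rose in self-filling loops 134 also rose in self-emptying loops, and of the 745 that fell 159 also fell. Another 11 genes passed in opposite directions. The difference between the 2 differences, taken as an interaction in the same fit, passed in 265 genes (2.36%), 114 more positive (1.02%) and 151 more negative (1.34%) in self-filling loops, and 186 of the 1413 genes were among them. This count ran from 52 without wild type self-filling replicate 3 to 515 without wild type self-filling replicate 2. It was 103, 171 and 84 without IL10 knockout replicate 1, IL10 knockout replicate 2 and wild type replicate 1 of the self-filling loops in turn. It was 149, 131, 124 and 139 without IL10 knockout replicates 2 and 3 and wild type replicates 2 and 3 of the self-emptying loops in turn.

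Several genes with large differences differed more between labels where content stood. Lcn2 read 7.98, 6.48 and 7.75 in self-emptying loops labelled IL10 knockout and 6.10, 4.79, 6.43 and 6.25 in wild type self-emptying loops, a difference of 1.51 ± 0.51 that did not pass. The interaction was 4.36 ± 0.75 (adjusted p = 0.00689). Cxcl10 differed by 0.79 ± 0.34 in self-emptying loops, with an interaction of 3.20 ± 0.50 (adjusted p = 0.00395), of which the exact size is not known because no wild type self-filling array detected Cxcl10. Nfkbia differed by 0.00 ± 0.25 there, with an interaction of 2.07 ± 0.36 (adjusted p = 0.00813). Chil3, Chil1 and Lgmn had interactions of 4.00 ± 0.77, 2.48 ± 0.47 and 1.64 ± 0.31, and Chil3 was detected on no wild type self-emptying array. Each of these 6 genes passed also with any 1 of the 13 arrays left out.

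Other genes differed in both loops without a call for the interaction. S100a8 read 11.05, 8.37 and 7.74 in self-emptying loops labelled IL10 knockout and 4.60, 4.87, 5.04 and 4.66 in wild type self-emptying loops, where 2 of 4 arrays detected it. It rose there by 4.26 ± 0.81, and its interaction of 1.87 ± 1.19 did not pass (adjusted p = 0.402). Lrg1 read 10.81, 10.57 and 11.54 in self-emptying loops labelled IL10 knockout and 7.28, 6.70, 6.84 and 6.05 in wild type self-emptying loops. It rose there by 4.26 ± 0.41, with an interaction of -0.91 ± 0.60 (adjusted p = 0.423). Of the interferon gamma list 13 of 21 rose in self-emptying loops and 4 had a positive interaction. Of the T cell list none of 20 rose there (limma), and 3 had a positive interaction. In self-emptying loops 7 of the T cell list had an unadjusted p under 0.05, against 2658 of all 11227 genes. Fatty acid oxidation fell there in 9 of 22 members (median -0.55) and the xenobiotic list in 8 of 22 (median -0.77). Digestion and absorption fell there in 5 of 23 (median -0.58). None of these 3 lists had a member that rose there or a call for the interaction. Of the enteroendocrine list 2 of 16 fell there and 1 rose, with a median of -0.41.

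Adh1 passed in opposite directions in self-filling and self-emptying loops. Adh1, an alcohol dehydrogenase that also oxidizes retinol, read 9.18, 11.08 and 8.84 in self-filling loops labelled IL10 knockout and 7.76, 7.67 and 7.00 in wild type self-filling loops, a rise of 2.22 ± 0.43. In self-emptying loops it read 7.39, 7.11 and 6.75 with the IL10 knockout label and 8.88, 9.07, 8.69 and 8.13 in wild type, and fell by 1.61 ± 0.40, and the interaction was 3.83 ± 0.59 (adjusted p = 0.00385). Myl7, a light chain of atrial myosin, rose by 2.11 ± 0.30 in self-emptying loops and differed by -0.74 ± 0.32 in self-filling loops, and Tfrc, the transferrin receptor, rose by 1.52 ± 0.33 and differed by -0.99 ± 0.35. Neither passed in self-filling loops (adjusted p = 0.139 and 0.0703). Their interactions were -2.85 ± 0.43 and -2.51 ± 0.49.

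**Figure D5:**
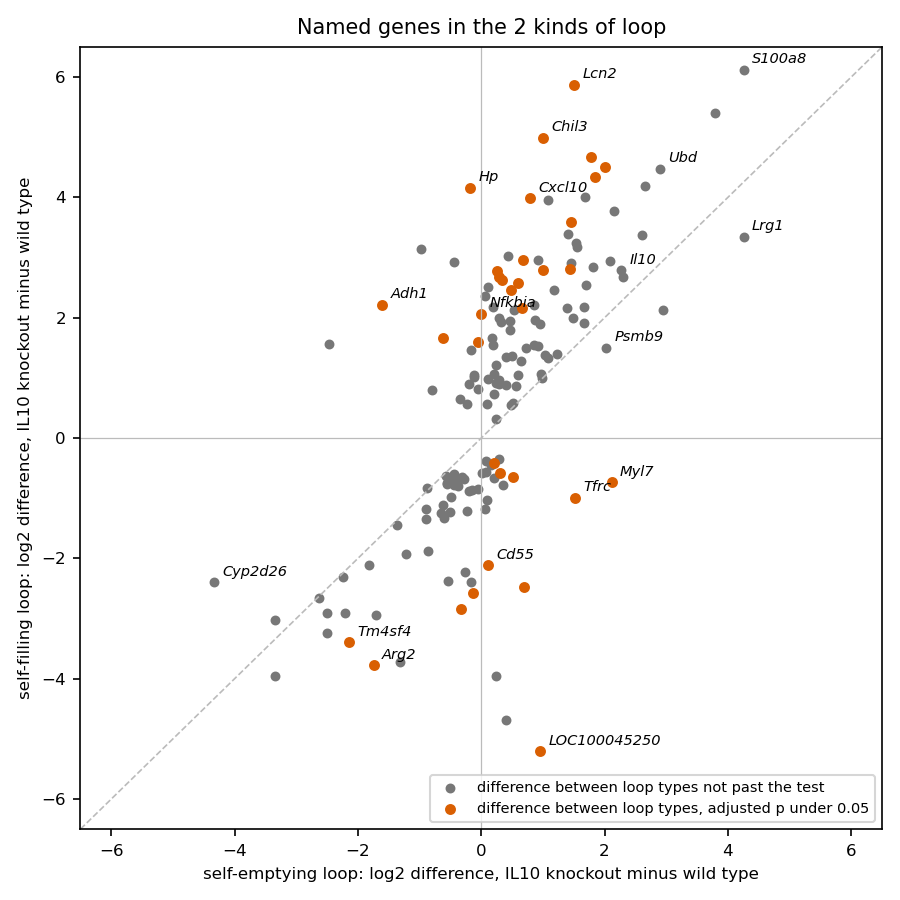
Log2 difference of the named genes, labelled IL10 knockout minus wild type, in self-filling loops (y axis) against self-emptying loops (x axis). Orange points passed the test of the interaction, and the dashed line marks equal differences. Lcn2, Chil3, Hp and Cxcl10 lie high above the line, and S100a8 and Lrg1 are high on both axes.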

How the data were processed

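Whole tissue RNA was read on Illumina mouse bead arrays with 1 colour. Per the file headers, the authors deposited for each probe and array a mean signal intensity without normalization, a detection p-value and a bead count. They also deposited processed log2 values for 17612 probes, whose background correction and scaling are not given in the sources used here; limma is named in the submitters' processing notes, with no version. The deposited log2 values differed from the present ones by at most 0.0951, had a median of 6.02 on each array, and served as an alternative.

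Intensities were corrected with the detection p-values (neqc in limma 3.58.1, offset 16, R 4.3.3), then quantile-normalized across the 25 arrays and log2-transformed. Probes detected at p under 0.05 on at least 3 arrays were kept, 15318 of 25697, and the probe with the highest mean stood for each gene. Symbols were updated to RefSeq through gene IDs for 23788 probes, accessions for 1148 and synonyms for 98. The sequences of the probes were not used here. For genes of families with near-identical copies a probe may read more than 1 gene. One mean per group was fitted over all 25 arrays with limma and Benjamini-Hochberg adjustment over 11227 genes, and the interaction was a contrast of the same fit. The scripts were tested on simulated data.

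A gene detected on no array of a group was given as at least N-fold: the mean of the other group against, per array, the higher of its own value and the lowest signal of a detected probe. Named genes were Il10, its receptor chains and Tlr4, the 15 largest rises and falls without overlap between groups, up to 5 genes of each of 37 lists, 5 interactions each way and called neighbours of Il10. The results of some of them are not reported here. The members, the lists and the rule were chosen with earlier results of these data known. Samples were grouped and numbered by title; for 4 arrays, 3 of self-emptying loops labelled IL10 knockout and wild type self-filling replicate 3, the description gives another number. The replicate numbers of the titles did not pair the self-filling loops (correlations of deviations -0.21, 0.04 and -0.01), so no block was used. Alternatives covered background, scaling, filter, probe choice, arrays fitted, weights, blocks and each array left out. Promoters were matched by symbol in RefSeq, build GRCm38.p6.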

Additional observations from a re-analysis of the deposited data

Results flagged for a closer look

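Of all 11227 genes, 265 passed the test of the interaction (2.36%). Some of the genes named were chosen for the size of their interaction, so their passing was fixed by that choice. Others were chosen for large self-filling differences, which are part of the same contrast. The count of named genes is therefore no rate to set against that share. The difference between labels was itself different in self-filling and self-emptying loops, by the test of the interaction, in 33 of the genes named. It was more positive in self-filling loops for Hp (4.34), Lcn2 (4.36), Chil3 (4.00), Adh1 (3.83), Cxcl10 (3.20), Fpr2 (2.89), C1qb (2.52), Cxcl9 (2.50), Chil1 (2.48), Fcer1g (2.39), Ifit2 (2.29), Rsad2 (2.29), Cd3d (2.29), Cd274 (2.13), Nfkbia (2.07), Nkg7 (1.99), Ifng (1.97), Tnf (1.80), Lgmn (1.64), Il1r2 (1.5) and Ctse (1.37), all in log2 units. It was more negative for LOC100045250 (-6.15), Phlda2 (-3.16), Myl7 (-2.85), Rbp7 (-2.52), Tfrc (-2.51), Asah2 (-2.44), Cd55 (-2.21), Arg2 (-2.03), Tm4sf4 (-1.26), Sox9 (-1.16), Cyp51 (-0.89) and Msmo1 (-0.62). The sizes for Cxcl10, Ifng, Il1r2 and Chil3 are not exact: no wild type self-filling array detected Cxcl10, Ifng and Il1r2, and no wild type self-emptying array detected Ifng, Il1r2 and Chil3. Of these 33 genes, 10 passed with each of the 13 arrays left out: Adh1, Chil1, Chil3, Cxcl10, Ifng, Lcn2, Lgmn, Myl7, Nfkbia and Tfrc. Adh1 and Cxcl10 passed under all 27 settings tried.

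Among the 4 wild type self-emptying arrays, 1 array stood far from the other 3 for LOC100045250, with a gap of 0.928 of the whole range, and for Phlda2, with a gap of 0.859. The threshold set for such gaps is one that chance passes in about 1 of 20 groups.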

How the results depend on the processing

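In self-filling loops 1413 genes passed. The count was 741 with the 6 arrays fitted alone and between 778 and 1394 with 1 array left out. The 1072 calls in self-emptying loops became 392 with median scaling, 589 with their arrays alone, 2034 with array weights and between 459 and 986 with 1 array left out. The 265 interactions became 94 with their arrays alone, 827 with array weights, 405 with the run of 8 codes as a block, 33 over runs that held both groups, and between 52 and 515 with 1 array left out. Fitted with the replicate block, the counts were 450, 6 and 16; the numbers did not pair the samples, and 0 of 3 arrays labelled IL10 knockout correlated best with their own number. For the fits with fewer arrays, fewer samples entered, and for the others the cause was not tested. Restricting self-emptying loops to runs with both groups left out no array and gives no further value. Of 145 named genes past the test in self-filling loops, 91 passed with each array left out. Under every setting in which they were tested 75 passed, and 0 changed direction. There were 20 settings, of which Ifng was tested in 19. Where groups do not overlap, leaving out an array cannot change the direction, so for such genes the 0 is no sign of stability. Signal near background limits the genes detected in 1 group only, whose folds are lower bounds.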

Other observations

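Some genes set 1 of the 3 self-filling loops labelled IL10 knockout apart from the other 2. A search made after the values were seen took genes with a gap of at least 2 log2 units where the other 2 arrays, and the wild type arrays, lay within 0.5 of each other, and found 9 genes. Replicate 1 stood apart in 5 of them, Cxcl2, Mmp13, Osm, Retnlg and Stfa1, and replicate 2 in Cyp2d9 and Fa2h.

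Replicate 3 stood apart in H2-Bl and Cops8. H2-Bl, a class I gene of the MHC whose probe may read close copies, read 9.55, 9.77 and 5.70 in self-filling loops labelled IL10 knockout and 5.17, 5.06 and 5.13 in wild type self-filling loops. In self-emptying loops labelled IL10 knockout it read 6.42, 10.51 and 10.20. Cops8, a subunit of the COP9 signalosome, read 7.67, 7.44 and 4.54 in self-filling loops labelled IL10 knockout and 8.77, 8.31 and 8.68 in wild type self-filling loops, and it read 8.01, 4.92 and 7.71 in self-emptying loops labelled IL10 knockout. For both genes, 1 array of each loop type with the IL10 knockout label lay more than 2 log2 units below the other 2.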
